A study of Homo sapiens with 12 samples.

Results

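DUSP1, DUSP4, DUSP5, DUSP6, DUSP10, SPRY2, SPRY4, SPRED1, SPRED2 and ETV5 were the genes examined. They were taken by gene name from the table of counts, where each had 1 entry, so that 10 of 63677 genes are described. The counts came from Huh7, a line of human hepatocellular carcinoma cells, in 4 groups of 3 samples. Untreated cells received medium alone. The other groups were exposed for 6 h to graphene oxide (GO) at 400 µg/mL, to GO carrying ginsenoside Rg3, a ginseng saponin (GO–Rg3), at 400 µg/mL, or to GO–Rg3 loaded with the anthracycline doxorubicin (GO–Rg3–DOX) at 100 µg/mL. All groups were of this 1 cell line. GO–Rg3–DOX differed from the other particles in dose as well as in its drug load, and free doxorubicin was not analysed here, so the drug, the carrier and the dose cannot be told apart in that group.

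Growth factor receptors signal through Ras to the kinases RAF, MEK and ERK, and active ERK induces genes whose products shut the same pathway down. Dual-specificity phosphatases (DUSP) remove the activating phosphates from ERK, p38 or JNK, Sprouty (SPRY) proteins act on the signal between receptor and Ras, and SPRED proteins hold back Ras and RAF. Transcripts of several of these genes, though not of all, are short-lived and follow ERK activity, and those are widely read as a record of pathway output. In liver cancer cells loss of Sprouty function is known to favour ERK signalling.

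The promoters of 3 members are shown because these genes fell after GO–Rg3–DOX and because their promoters differ in what they hold. RefSeq sequences (GRCh38.p14) of 250 bases before and 50 bases from the annotated start were matched for 7 of the 10 members (all but DUSP4, DUSP5 and ETV5), with 11 start sites in all. Matches were sought on both strands to the cyclic AMP response element (CRE, TGACGTCA), its core TGACG, which lies within the CRE, the AP-1 element TGANTCA, the ETS element CCGGAAG and the CArG box. Matches are in capitals, each sequence runs 5′ to 3′ on the gene's own strand, all from the minus strand, and the windows are chr5:172771146-172771445 for DUSP1, chr12:89352452-89352751 for DUSP6 and chr13:80341077-80341376 for the most upstream of 3 starts of SPRY2.

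DUSP1: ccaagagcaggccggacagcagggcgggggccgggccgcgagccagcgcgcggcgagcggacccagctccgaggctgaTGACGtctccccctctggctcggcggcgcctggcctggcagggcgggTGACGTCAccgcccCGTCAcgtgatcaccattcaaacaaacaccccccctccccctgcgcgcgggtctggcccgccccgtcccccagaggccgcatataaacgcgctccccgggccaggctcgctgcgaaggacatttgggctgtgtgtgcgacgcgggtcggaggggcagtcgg
DUSP6: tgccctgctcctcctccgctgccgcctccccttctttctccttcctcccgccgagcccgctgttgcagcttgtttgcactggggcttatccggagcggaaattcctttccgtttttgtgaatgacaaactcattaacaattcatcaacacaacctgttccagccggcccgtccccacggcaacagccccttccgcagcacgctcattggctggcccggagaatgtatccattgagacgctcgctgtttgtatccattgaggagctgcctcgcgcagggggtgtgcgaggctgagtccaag
SPRY2: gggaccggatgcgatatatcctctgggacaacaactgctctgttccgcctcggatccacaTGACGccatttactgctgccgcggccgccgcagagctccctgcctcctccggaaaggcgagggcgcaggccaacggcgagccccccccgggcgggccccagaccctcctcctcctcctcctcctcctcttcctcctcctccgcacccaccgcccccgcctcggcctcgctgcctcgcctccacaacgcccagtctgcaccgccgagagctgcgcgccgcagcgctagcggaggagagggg

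The DUSP1 window held the full CRE from base -125 relative to the start and 4 matches to its core, at -172, -125, -122 and -111, of which those at -125 and -122 are the CRE itself. Of 35116 RefSeq promoter windows of the same length, 1.85% held the CRE and 24.6% the core. SPRY2 held the core once at its most upstream start, at -190, SPRY4 once at -68, SPRED2 once at base 31 of the transcribed stretch of its first listed start, and DUSP10 once at -4 of its second listed start. The other SPRED2 start had an AP-1 match at -6 and another at 35, and AP-1 was found in 7.71% of all windows. No window of a member held the ETS element, present in 10.3% of all windows, or the CArG box, present in 1.29%. The windows of DUSP6 and SPRED1 held none of these letters. The GC content of the windows shown was 73.3% for DUSP1, 58.3% for DUSP6 and 71.0% for SPRY2, beside a median of 58.7% over all windows. Which start the cells used was not measured.

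Total counts per sample ranged from 27802871 to 38877420. The members had between 141 and 5598 counts in a sample, and all 10 passed the filter on low counts (3 or more samples with 10 or more counts), as did 17092 genes. All 8 hepatocyte markers examined were above 1 CPM in every group, and their summed level was 25700 to 26060 CPM in untreated cells. It was 12930 to 19000 CPM in the GO group, 20000 to 24470 CPM in the GO–Rg3 group and 23110 to 31560 CPM in the GO–Rg3–DOX group. Of 11 leukocyte, endothelial and fibroblast markers, PECAM1 was at 0 in every sample, and the summed leukocyte markers were 1.36 to 1.87 CPM in the untreated samples and 2.40 to 3.27 CPM after GO–Rg3–DOX. The summed fibroblast markers were 3.52 to 4.68 CPM in the untreated samples and 8.02 to 8.65 CPM after GO–Rg3–DOX. Marker CPM were scaled by library totals alone, whereas CPM of single genes below were also scaled by the TMM method. Mitochondrially encoded genes took 5.31% to 6.28% of the counts in untreated cells, 12.1% to 24.1% in the GO group, 6.89% to 7.42% in the GO–Rg3 group and 12.8% to 19.4% in the GO–Rg3–DOX group. GO replicate 1 had the highest share and stood farthest from its group. Log2 fold changes also moved with the GC content of genes. Against untreated cells, Spearman's rho across 16622 genes was 0.43 for GO, 0.20 for GO–Rg3 and 0.36 for GO–Rg3–DOX. For GO–Rg3 against GO it was -0.43. The part of these differences in the results below was not tested beyond the values given beside them. The labels do not say that replicates came from separate cultures, so p-values measure the spread between these samples, and in bulk RNA fewer cells of a type and less RNA per cell cannot be told apart.

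In untreated cells DUSP5, a nuclear phosphatase selective for ERK, had the highest level of the members per length. Expressed as CPM, a gene's counts scaled to a common library size, per kb of exon, it stood at 52.3 ± 1.62 (SD, n = 3), followed by DUSP1 at 23.5 ± 0.20, SPRY2 at 19.8 ± 0.32 and DUSP6 at 19.1 ± 0.40. Then came SPRED2 at 11.1 ± 0.54, ETV5 at 9.57 ± 0.35, SPRY4 at 6.10 ± 0.28, DUSP4 at 4.37 ± 0.12, SPRED1 at 2.92 ± 0.072 and DUSP10 at 2.37 ± 0.10. The samples of no 2 neighbours in this order overlapped. In the other groups DUSP5 stayed highest, with 56.5 ± 2.69 CPM per kb for GO, 51.5 ± 1.24 for GO–Rg3 and 21.5 ± 0.54 for GO–Rg3–DOX. SPRY2 moved most in rank, from 3 of 10 in untreated cells to 9 of 10 after GO–Rg3–DOX at 2.32 ± 0.44 CPM per kb, where its samples overlapped those of its neighbours DUSP10 and SPRED1. After GO the samples of DUSP6 and DUSP1, of DUSP1 and ETV5, and of SPRY2 and SPRY4 overlapped, and after GO–Rg3 those of DUSP6 and SPRY2 and of SPRY4 and DUSP4. Samples of DUSP1 and ETV5, of ETV5 and DUSP6, and of SPRED2 and SPRY4 also overlapped after GO–Rg3–DOX.

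**Figure D1:**
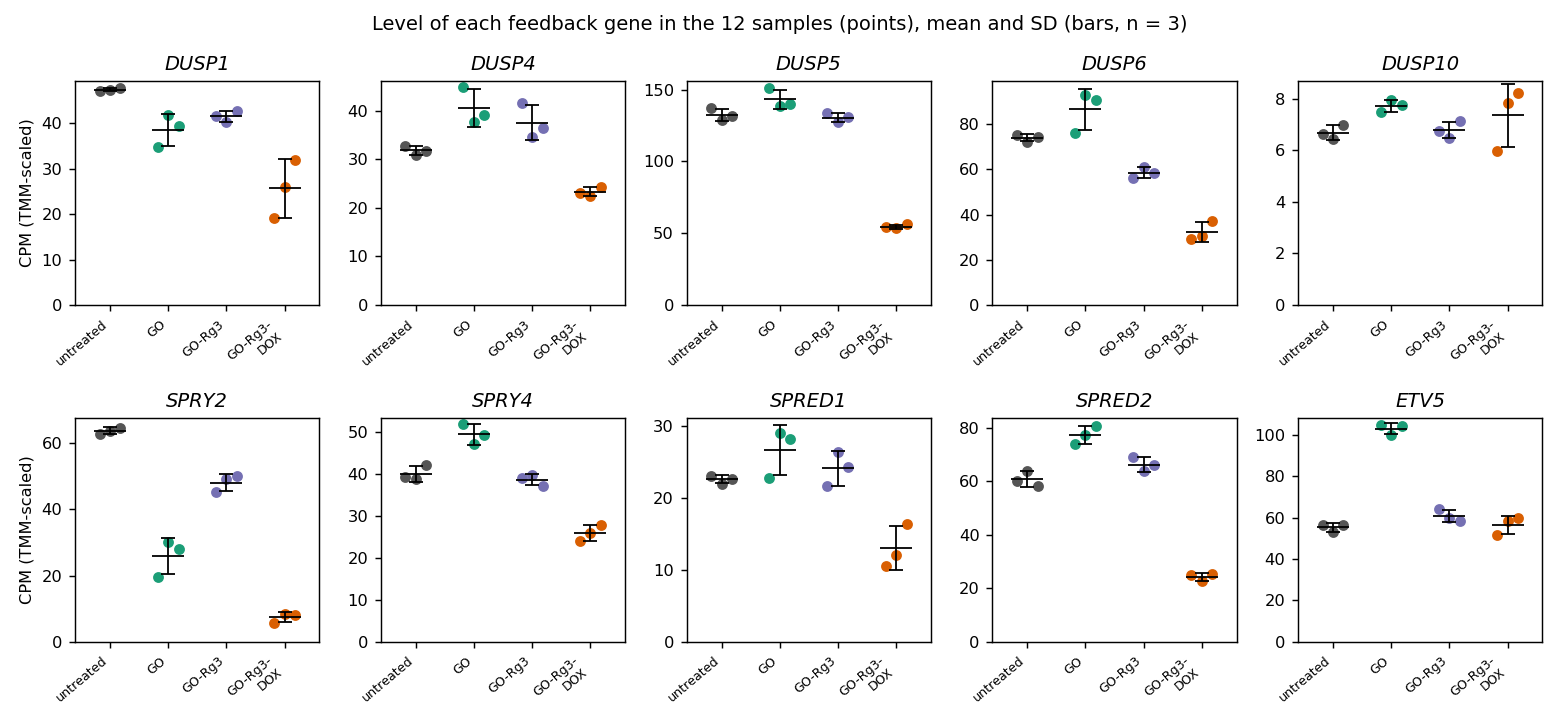
Level of each of the 10 genes as CPM scaled by the TMM method (y axis, from 0, a scale of its own for each gene) in the 12 samples (points, replicates 1 to 3 from left to right), by treatment group, with the mean and SD of 3 samples (bars). SPRY2 lies between 62.7 and 64.7 CPM in the untreated samples and between 5.81 and 8.34 CPM after GO–Rg3–DOX, and ETV5 is highest after GO at 100.0 to 104.6 CPM.

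The comparison of GO with untreated cells asks how the bare carrier altered these genes. SPRY2 fell and ETV5 and SPRED2 rose, while the remaining 7 members did not pass the test. A gene passed when the Benjamini-Hochberg adjusted p of edgeR's quasi-likelihood test, over all genes, was below 0.01. Thus 2 members passed as higher, where 12.1% of all genes tested did, and 1 as lower, where 15.4% did. With the added condition of an absolute log2 fold change above 1, 0 members were higher and 1 was lower, beside 3.84% and 2.62% of all genes. By DESeq2, 4 members passed as higher without the fold condition, where 15.0% of all genes did. The median log2 fold change was 0.24 over the members and 0.01 over all genes.

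SPRY2 (ENSG00000136158, chr13:80910111-80915261, minus strand, GRCh37), the Sprouty inhibitor of receptor signalling, stood at 62.7, 63.8 and 64.7 CPM in untreated replicates 1 to 3 and at 19.6, 30.2 and 28 CPM after GO. The groups did not overlap, and GO replicate 1 was the lowest. The log2 fold change was -1.29 ± 0.15 (SE), a 2.45-fold lower level (adjusted p = 1.78e-05 by edgeR), and with each sample left out in turn it lay between -1.42 and -1.13. In contrast SPRY4, which acts at the same step, was at 38.7 to 42.1 CPM in the untreated samples and 47.0 to 51.9 CPM after GO, with a log2 fold change of 0.30 ± 0.09 and an adjusted p of 0.0152, which missed the threshold.

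ETV5 (ENSG00000244405, chr3:185764103-185828107, minus strand, GRCh37), an ETS transcription factor induced by fibroblast growth factor and ERK signalling, stood at 56.3, 52.9 and 56.6 CPM in the untreated samples and at 104.6, 100.0 and 104.4 CPM after GO. Every GO sample was above every untreated sample. The rise was 1.86-fold (log2 fold change of 0.90 ± 0.09, adjusted p = 4.97e-06 by edgeR). Its exons overlap those of DGKG on the same strand, so its counts are uncertain to that extent.

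SPRED2, which restrains the Ras to RAF step, stood at 60.3, 64.0 and 58.2 CPM in the untreated samples and at 74.1, 77.5 and 80.9 CPM after GO. The log2 fold change was 0.35 ± 0.09 (adjusted p = 0.0053 by edgeR). This call was lost when untreated replicate 1, 2 or 3 or GO replicate 2 or 3 was left out, with adjusted p-values of up to 0.034. It was also lost with library totals alone (adjusted p = 0.135) and without a filter on low counts (adjusted p = 0.0484). SPRED1, its relative, was at 22.0 to 23.1 CPM in the untreated samples and 22.7 to 29.1 CPM after GO. Its groups overlapped, with a log2 fold change of 0.24 ± 0.15 and an adjusted p of 0.192, which became 0.59 and 0.000154 when the fit included an offset for GC content.

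Of the phosphatases, 0 passed after GO by edgeR, 2 (DUSP4 and DUSP6, both higher) had an unadjusted p below 0.05, as did 24.2% of all genes in that direction, and DUSP4 passed by DESeq2 (adjusted p = 0.00269). The log2 fold changes of the inducible nuclear DUSP4 and of cytoplasmic, ERK-selective DUSP6 were 0.35 ± 0.10 and 0.23 ± 0.11, with adjusted p-values of 0.0121 and 0.0944. DUSP1, an immediate early phosphatase that acts on p38 and JNK as well as ERK, had a value of -0.30 ± 0.14 (adjusted p = 0.0997). DUSP5 and the p38- and JNK-directed DUSP10 had values of 0.11 ± 0.08 and 0.21 ± 0.13 (adjusted p = 0.275 and 0.198). In 7 members every GO sample lay above every untreated sample and in 2, DUSP1 and SPRY2, every one lay below, beside 28.6% and 29.9% of all genes tested.

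The comparison of GO–Rg3 with untreated cells shares its controls with the one above. None of the 10 members passed in either direction by edgeR or by DESeq2, and 3 had an unadjusted p below 0.05 in edgeR. These were DUSP4, higher as were 3.9% of all genes at that level, and DUSP6 and SPRY2, lower as were 9.5%. Few genes of any kind passed: 0.0585% of all genes were higher and 0.105% lower, or 0.0117% and 0.0468% with an absolute log2 fold change above 1. By DESeq2 the shares were 0.563% and 2.03%. The median log2 fold change of the members was 0.00, and that of all genes was also 0.00. SPRY2 was at 45.3, 49.1 and 49.95 CPM after GO–Rg3, each below the untreated samples and above the GO samples. Its log2 fold change was -0.41 ± 0.15, with a 95% confidence interval of -0.72 to -0.10 and an adjusted p of 0.204. DUSP6 was at 56.0, 61.0 and 58.4 CPM, below its untreated range of 72.1 to 75.0 CPM without overlap, with a log2 fold change of -0.34 ± 0.11 and an adjusted p of 0.142. ETV5 was at 64.0, 59.9 and 58.5 CPM, and its log2 fold change of 0.14 ± 0.09 had an adjusted p of 0.558. The log2 fold changes of the other 7 members lay between -0.19 (DUSP1) and 0.24 (DUSP4). In 3 members (DUSP1, DUSP6 and SPRY2) every GO–Rg3 sample lay below every untreated sample, and in 2 (DUSP4 and ETV5) above. The shares of all genes without overlap were not counted for this comparison.

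The comparison of GO–Rg3 with GO, both at 400 µg/mL, asks how these preparations differed at the same stated dose. By the paper's account, Rg3 was attached in heated sulfuric acid, and the flakes became larger, thicker and less negatively charged. No GO treated with acid alone was analysed here, so Rg3 cannot be told apart from these changes. SPRY2 was higher, and ETV5 and DUSP6 were lower, after GO–Rg3 than after GO. Thus 1 member passed as higher, beside 7.33% of all genes, and 2 as lower, beside 6.25%. None passed with an absolute log2 fold change above 1, as did 0.702% and 2.07% of all genes. For the other 7 members the test gave no call, and the median log2 fold change was -0.17 over the members and -0.02 over all genes.

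SPRY2 averaged 48.1 ± 2.50 CPM after GO–Rg3 and 25.9 ± 5.56 CPM after GO (SD, n = 3). All 3 GO–Rg3 samples were above all 3 GO samples, a 1.85-fold difference (log2 fold change of 0.89 ± 0.15, adjusted p = 0.000709 by edgeR). ETV5 averaged 60.8 ± 2.86 CPM after GO–Rg3, 1.69-fold lower than the 100.0 to 104.6 CPM of the GO samples (log2 fold change of -0.76 ± 0.09, adjusted p = 4.38e-05). DUSP6 (ENSG00000139318, chr12:89741012-89746278, minus strand, GRCh37) was at 76.2, 92.9 and 90.6 CPM after GO, and its GO–Rg3 samples were lower without overlap. Its log2 fold change was -0.57 ± 0.11 (adjusted p = 0.00166), and exons of ENSG00000274021 on the opposite strand overlap it, which leaves its counts uncertain where strand was not used. The call of DUSP6 was lost without GO–Rg3 replicate 3 (adjusted p = 0.0104) and with library totals alone (adjusted p = 0.052), and those of DUSP6 and SPRY2 were lost when only the 6 samples compared were fitted (adjusted p = 0.0184 and 0.0107).

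SPRY4 had a log2 fold change of -0.36 ± 0.09 and an adjusted p of 0.0105 in the same comparison, just outside the threshold, although its samples did not overlap. In DESeq2 its adjusted p was 0.000479. The values of DUSP5, DUSP10 and SPRED2 were also lower in every GO–Rg3 sample than in every GO sample, as were those of 18.9% of all genes, with adjusted p-values of 0.235, 0.288 and 0.0676. SPRED1 again depended on the GC offset, which moved its log2 fold change from -0.15 to -0.47 (adjusted p = 0.00203).

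**Figure D2:**
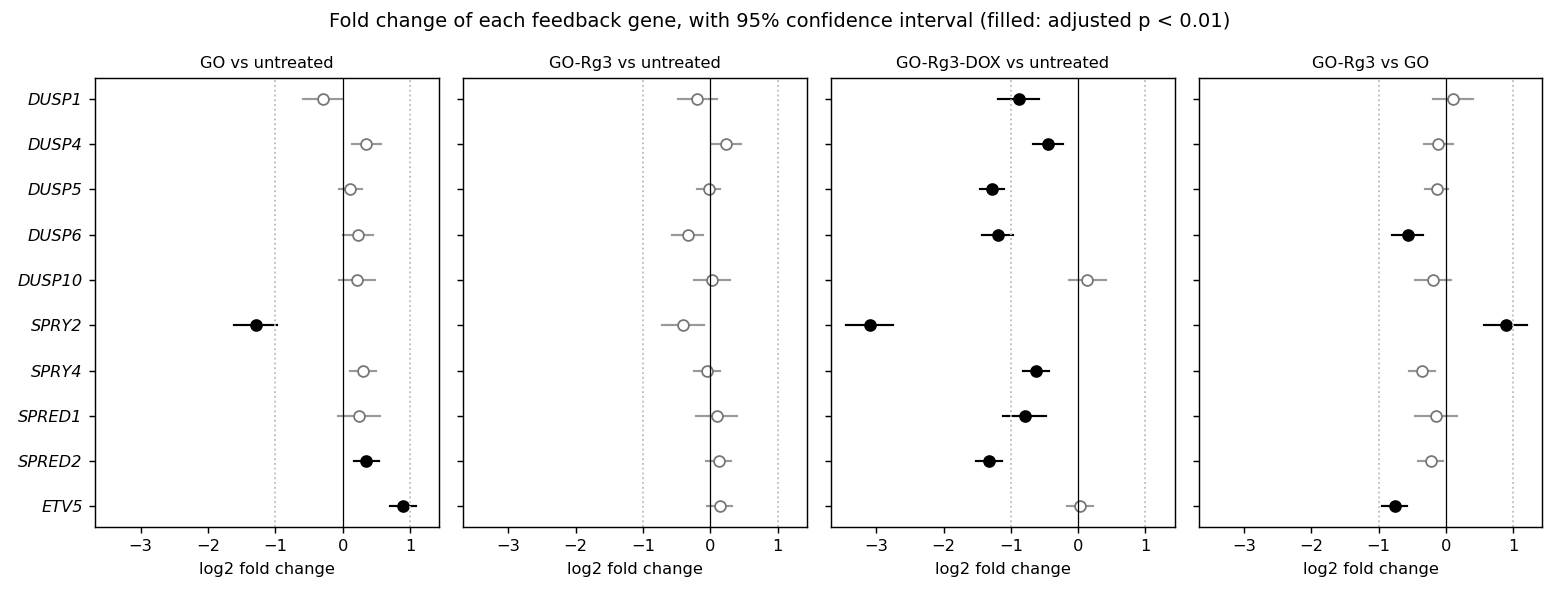
Log2 fold change of the 10 genes (x axis) in each of the 4 comparisons (panels), with an approximate 95% confidence interval derived from edgeR's F statistic (lines). Filled points had an adjusted p below 0.01, and dotted lines mark -1 and 1. After GO–Rg3–DOX 8 of 10 points are filled and to the left of 0, SPRY2 farthest at -3.09, while DUSP10 and ETV5 lie near 0.

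The comparison of GO–Rg3–DOX with untreated cells asks how the drug-loaded carrier altered the feedback genes. Of the 10 members 8 fell, namely DUSP1, DUSP4, DUSP5, DUSP6, SPRY2, SPRY4, SPRED1 and SPRED2, and ETV5 and DUSP10 did not pass. Among all genes 30.5% passed as lower and 25.5% as higher, and 0 members were higher by edgeR, by DESeq2 (28.7% of all genes) or at an unadjusted p below 0.05 (32.3%). With an absolute log2 fold change above 1, 4 members were lower (DUSP5, DUSP6, SPRY2 and SPRED2) and 0 higher, beside 18.2% and 12.6% of all genes. The median log2 fold change was -0.84 over the members and -0.06 over all genes. With library totals alone the median of all genes was -0.47, and 22.8% of the genes that passed were higher in place of 45.5%. Under that scaling 8 members and 42.7% of all genes passed as lower.

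SPRY2 was at 5.81, 8.34 and 8.20 CPM after GO–Rg3–DOX (141, 232 and 215 counts), and all 3 were below every other sample of the series. The level was 8.53-fold lower than in untreated cells (log2 fold change of -3.09 ± 0.16, adjusted p = 7.02e-10 by edgeR). SPRY4 was at 23.9, 25.9 and 27.8 CPM and fell by 0.63 ± 0.09 on the log2 scale (adjusted p = 2.62e-05). Both Sprouty genes thus fell, SPRY2 by the greater amount.

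SPRED2 was at 25.1, 22.6 and 25.3 CPM after GO–Rg3–DOX, 2.50-fold below untreated cells (log2 fold change of -1.32 ± 0.09, adjusted p = 8.96e-09 by edgeR). SPRED1 was at 10.6, 12.1 and 16.4 CPM, with a log2 fold change of -0.79 ± 0.15 (adjusted p = 0.000245). No sample of either gene reached the untreated range. With an offset for GC content the value of SPRED1 was -0.27 and its call was lost (adjusted p = 0.0263), while the other 7 genes that fell were still called.

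DUSP5 (ENSG00000138166, chr10:112257665-112271291, plus strand, GRCh37) was at 137.0, 128.8 and 131.8 CPM in the untreated samples and at 54.0, 53.5 and 56.1 CPM after GO–Rg3–DOX. The 2.43-fold fall (log2 fold change of -1.28 ± 0.08, adjusted p = 4.49e-09 by edgeR) was the one with the smallest standard error among the members. DUSP6 was at 75.0, 72.1 and 74.4 CPM in the untreated samples and at 29.2, 30.3 and 37.1 CPM after GO–Rg3–DOX, 2.29-fold lower (log2 fold change of -1.20 ± 0.11, adjusted p = 1.75e-07). DUSP5 in the nucleus and DUSP6 in the cytoplasm are the phosphatases of this list that are selective for ERK.

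DUSP1 was at 47.0, 47.3 and 47.8 CPM in the untreated samples and at 19.1, 25.9 and 31.9 CPM after GO–Rg3–DOX. Its treated samples were spread more widely than those of DUSP5, yet none overlapped the untreated samples, and the log2 fold change was -0.89 ± 0.14 (adjusted p = 5.35e-05 by edgeR). DUSP4, the close relative of DUSP1, was at 31.0 to 32.8 CPM in the untreated samples and at 22.5 to 24.3 CPM after GO–Rg3–DOX, with a log2 fold change of -0.45 ± 0.10 (adjusted p = 0.00121). With library totals alone the values of DUSP4 and SPRY4 were -0.87 and -1.04. DUSP10 was at 6.43 to 6.995 CPM in the untreated samples and 5.97 to 8.24 CPM after GO–Rg3–DOX, with overlap and a log2 fold change of 0.14 ± 0.13 (95% confidence interval -0.14 to 0.41, adjusted p = 0.357).

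ETV5 was at 51.4, 58.2 and 59.8 CPM after GO–Rg3–DOX and overlapped its untreated samples. Its log2 fold change was 0.03 ± 0.09, with a 95% confidence interval of -0.16 to 0.22 and an adjusted p of 0.774. Its sign depended on the scaling, with -0.38 for library totals alone. Set side by side, ETV5 was at 100.0 to 104.6 CPM with GO at 400 µg/mL, 58.5 to 64.0 CPM with GO–Rg3 at 400 µg/mL and 51.4 to 59.8 CPM with GO–Rg3–DOX at 100 µg/mL. SPRY2 averaged 25.9, 48.1 and 7.45 CPM in the same order. These particles differed in dose, and no comparison of GO–Rg3–DOX with the others was made.

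Over the 12 samples the members most alike were DUSP5 and SPRED2, with a Pearson's r of log2 CPM of 0.99, followed by DUSP6 and SPRY4 at 0.96. The 28 pairs among the 8 genes other than DUSP10 and ETV5 had r from 0.63 to 0.99, with a median of 0.89. The 17 pairs with DUSP10 or ETV5 had a median of 0.17 and went down to -0.27, for DUSP10 with SPRY2. These coefficients describe samples that fall into 4 groups and share their scaling. The positive values rested on the GO–Rg3–DOX samples for part of the list. Over the other 9 samples, 12 of the 28 pairs had r below 0, all of them pairs of DUSP1 or SPRY2 with 1 of the other 6 genes, such as SPRY2 with SPRY4 (from 0.67 to -0.88) and DUSP1 with DUSP4 (from 0.64 to -0.89). DUSP1 with SPRY2 kept an r of 0.91, DUSP5 with SPRED2 had 0.61, and ETV5 had r above 0.5 with 7 of the other 9 members. Among 13242 genes with a mean of at least 1 CPM, those whose levels over the 12 samples were most like DUSP6 were HEY1 (r = 0.98), CITED2 (0.98), ZSWIM5 (0.98), BTN2A3P (0.98) and TDRP (0.98). HEY1, a Notch target, averaged 9.14 CPM in the untreated group, 9.93 CPM with GO, 6.17 CPM with GO–Rg3 and 2.54 CPM with GO–Rg3–DOX.

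**Figure D3:**
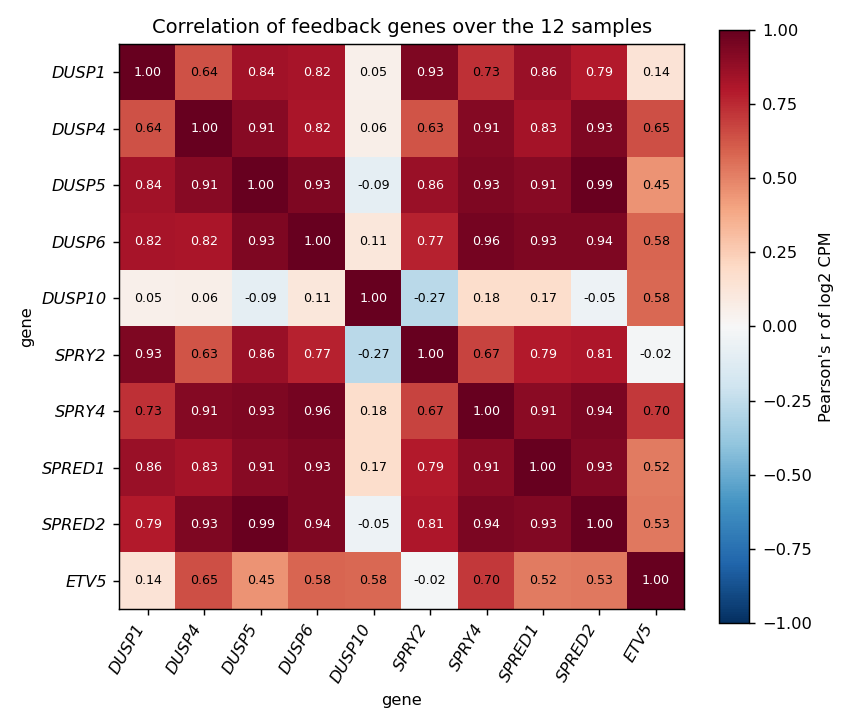
Pearson's r of log2 CPM between each pair of the 10 genes (both axes) over the 12 samples, from -1 (blue) to 1 (red), with the value printed in each cell. The 8 genes other than DUSP10 and ETV5 have r of 0.63 or more with each other, though 12 of these 28 pairs are below 0 without the GO–Rg3–DOX samples. DUSP10 with SPRY2 is lowest at -0.27.

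The other genes of the pathway were followed in 8 lists of 75 genes, 67 of which were tested. After GO, 11 of the 67 (16.4%) passed as higher and 6 (9.0%) as lower, beside 12.1% and 15.4% of all genes. After GO–Rg3, 0 passed in either direction by edgeR, beside 0.0585% higher and 0.105% lower of all genes. Between GO–Rg3 and GO 4 (6.0%) were higher and 6 (9.0%) lower, beside 7.33% and 6.25% of all genes. In the GO–Rg3–DOX group 18 (26.9%) were higher and 23 (34.3%) lower, shares near the 25.5% and 30.5% of all genes.

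Upstream of Ras, 5 of 9 growth factor ligands were tested. HBEGF, a heparin-binding ligand of the EGF receptor, was at 2.28 ± 0.22 CPM in the untreated samples and 17.8 ± 0.25 CPM after GO–Rg3–DOX (log2 fold change of 2.96 ± 0.14, adjusted p = 2.47e-10 by edgeR), and EGF rose as well (0.84 ± 0.15). FGF2 fell in both GO (-1.11 ± 0.16) and GO–Rg3–DOX (-1.50 ± 0.17) and was higher after GO–Rg3 than after GO (0.98 ± 0.16). Of 12 receptors 3 rose after GO, namely the insulin receptor INSR (1.45 ± 0.15), FGFR1 (1.02 ± 0.11) and IGF1R (1.02 ± 0.12), and all 3 were lower after GO–Rg3 than after GO. ERBB2, FGFR1, FGFR4 and KLB rose and EGFR and MET fell after GO–Rg3–DOX. FGFR4, the main FGF receptor of hepatocytes, went from 269.1 ± 22.9 CPM to 676.0 ± 5.92 CPM, and MET, the hepatocyte growth factor receptor, from 107.7 ± 4.19 to 64.6 ± 6.65 CPM.

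Of 12 Ras adaptors and regulators only the FGF receptor adaptor FRS2 passed after GO (-0.47 ± 0.12, lower). After GO–Rg3–DOX 6 fell, among them GAB1, FRS2 and SOS2, and 2 rose, SHC1 and HRAS. The log2 fold changes were -1.84 ± 0.13 for the docking protein GAB1 and -1.30 ± 0.15 for the exchange factor SOS2. Of 11 kinases of the ERK cascade, 4 rose after GO–Rg3–DOX (ARAF, MAP2K2, MAPK3 and RPS6KA1) and 3 fell, among them the scaffold KSR1. MAPK3, which encodes ERK1, rose to 91.6 ± 14.6 CPM from 36.03 ± 1.34 CPM (log2 fold change of 1.35 ± 0.14, adjusted p = 8.67e-07), and it also rose after GO (0.55 ± 0.14). Of 11 p38 and JNK kinases MAPK13 rose and MAP2K4, MAP2K7 and MAPK14 fell after GO–Rg3–DOX, and MAPK13 and MAPK11 rose while MAPK9 and MAP2K6 fell after GO.

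Feedback genes outside the 10 members were also followed. Of the 3 other MAP kinase phosphatases tested, DUSP8 (1.43 ± 0.23) and DUSP16 (0.47 ± 0.11) rose after GO, and DUSP7 (-1.39 ± 0.16) and DUSP16 (-0.74 ± 0.11) fell after GO–Rg3–DOX. Of 6 further Sprouty, SPRED and receptor feedback genes, 0 passed after GO and 4 fell after GO–Rg3–DOX: SPRY1, SPRY3, ERRFI1 and IL17RD. SPRY1 went from 18.4 ± 0.60 CPM to 2.37 ± 0.40 CPM (log2 fold change of -2.95 ± 0.14, adjusted p = 2.08e-10 by edgeR), and ERRFI1, an inhibitor of the EGF receptor, from 293.4 ± 7.13 to 55.4 ± 8.17 CPM (-2.40 ± 0.13). SPRED3 was higher but low, at 0.53 ± 0.11 CPM.

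Of 7 other output genes of ERK tested, ETV4, PHLDA1 and EGR1 rose and CCND1 fell after GO. In the GO–Rg3–DOX group ETV4, CCND1, EPHA2 and EGR1 rose and ETV1 and PHLDA1 fell. EGR1, an immediate early transcription factor, was at 7.14 ± 1.35 CPM in the untreated samples and 84.5 ± 2.33 CPM after GO–Rg3–DOX (log2 fold change of 3.56 ± 0.15, adjusted p = 9.26e-11 by edgeR), opposite in direction to the 8 members that fell. The median log2 fold change of these 7 genes was 0.53 after GO–Rg3–DOX, and that of the 6 further feedback genes was -1.09, beside -0.06 over all genes.

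**Figure D4:**
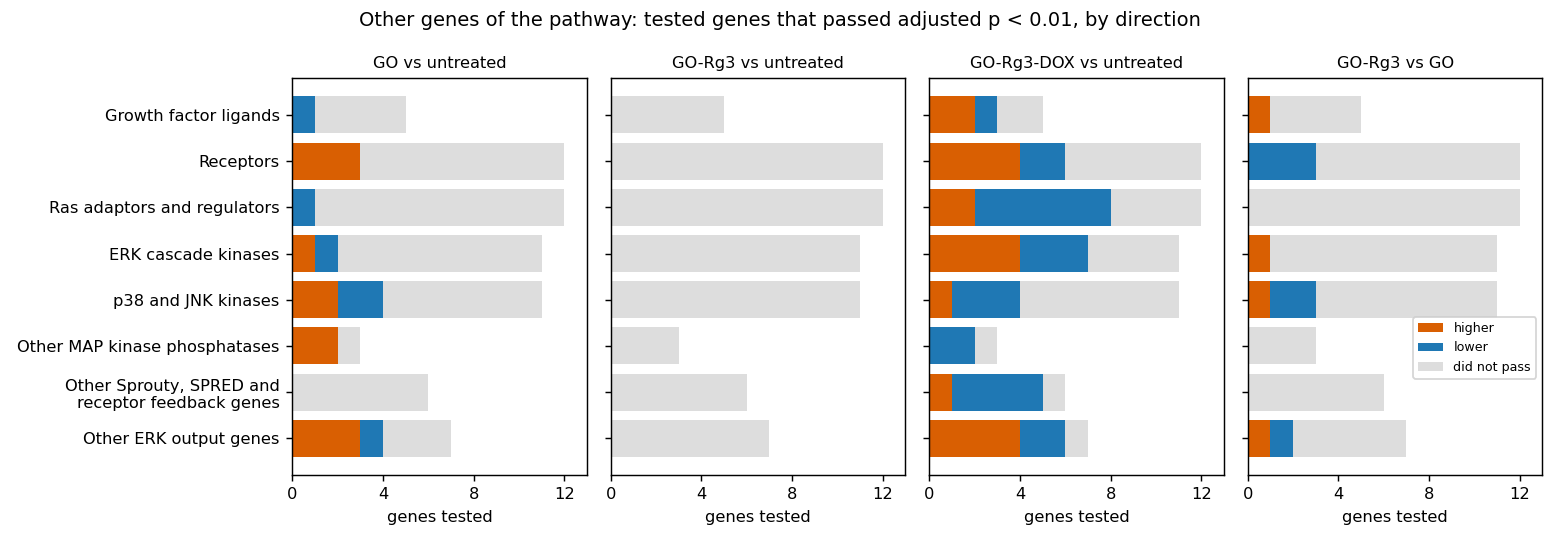
Number of genes tested in each of 8 lists of the pathway (x axis, stacked bars) that were higher, lower or did not pass an adjusted p of 0.01 in each comparison (panels). After GO–Rg3 every bar is grey, where 0.0585% of all genes were higher and 0.105% lower. After GO–Rg3–DOX the Ras adaptor list has 6 lower and 2 higher genes of 12.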

How the data were processed

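RNA of 12 samples of Huh7 cells was sequenced by the authors from stranded mRNA libraries, aligned to GRCh37 within the NGI-RNAseq pipeline and assigned to genes by featureCounts. The deposited table holds raw counts that were not normalized. The version, annotation release and strand setting are not given in the sources used here, so overlapping genes are uncertain. Groups and replicate numbers came from the sample labels.

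The 17092 genes that reached 10 counts in 3 or more samples were scaled by TMM and tested with edgeR 4.0.16 (R 4.3.3), quasi-likelihood test, 1 model over the 12 samples, Benjamini-Hochberg adjustment over all genes in each of 4 comparisons, and a threshold of 0.01. The study's methods name DESeq2 (here 1.42.0), which was an alternative. Log2 CPM used a prior count of 2. Gene positions, lengths and GC content came from a GENCODE annotation lifted to GRCh37, promoters from RefSeq. Further tables used pandas 2.3.3 under Python 3.11.15.

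All 10 members are named in each comparison. For each list every gene is counted, and values come from the up to 3 genes with the largest absolute log2 fold change among those that passed, apart from items that are not reported here. The members and lists were chosen with earlier results of these data known. Alternatives were RLE scaling, library totals alone, no filter, at least 10 counts in every sample, DESeq2, the replicate number as a block, only the 6 samples compared, a GC content offset with and without that block, mitochondrially encoded genes left out, other thresholds and each sample left out. Totals of 27802871 to 38877420 counts per sample leave counting error small for all members, and it is the only error that depth describes.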

Additional observations from a re-analysis of the deposited data

How the results depend on the processing

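Of 640 values of the members' log2 fold changes under other settings, 590 kept their direction and side of the threshold, 13 lost the call, 17 gained it and 20 changed sign. None of the values that changed sign had passed. After GO, 2 members were higher, and the count was 1 with library totals alone or without a filter, 4 with at least 10 counts in every sample, in DESeq2, or at an adjusted p of 0.05, 1 at 1e-04, 0 with the fold condition, and 1 to 2 with a sample left out. After GO–Rg3–DOX the count of 8 lower was 4 with the fold condition, 6 at 1e-04 and 7 with the GC offset. Between GO–Rg3 and GO the 1 higher gene was 0 with only the 6 samples, with the fold condition or at 1e-04, and the 2 lower were 1 with library totals alone, with only the 6 samples or at 1e-04, 0 with the fold condition, 4 with the GC offset, and 1 to 2 with a sample left out. The cause was not tested. The most alike pair was DUSP1 and SPRY2 by Spearman's rho (0.97), and SPRY4 and ETV5 (r = 0.93) over the 9 samples other than GO–Rg3–DOX, a setting chosen after seeing the data.

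The labels do not say what the replicate numbers stand for. The main fit did not pair the samples by number, as the study's methods name no block. A correlation above 0.1 was found in 7 of 18 same-numbered pairs. Same-numbered samples had a mean correlation of deviations from the group mean of 0.09 (-0.02 to 0.25 over 18 pairs), beside -0.045 for other pairs. Of 12 samples, 10 correlated best with their own number. Samples were thus alike by number to some degree, which the p-values of the main fit leave out. With the replicate block, 3 members were higher and 1 lower after GO, 8 were lower after GO–Rg3–DOX, and 1 was higher and 3 were lower between GO–Rg3 and GO. The calls gained were DUSP4 after GO (adjusted p = 0.00504) and SPRY4 between GO–Rg3 and GO (adjusted p = 0.00757). Calls over all 17092 genes rose too. With the block 2601 were higher and 3190 lower after GO, beside 2074 and 2639 in the main fit. After GO–Rg3–DOX 5477 were lower, beside 5214. Between GO–Rg3 and GO 1810 were higher and 1561 lower, beside 1253 and 1068. With the GC offset and the replicate block, 4 members were higher and 2 lower after GO, and 7 were lower after GO–Rg3–DOX. Between GO–Rg3 and GO 1 was higher and 4 were lower. Over all genes these counts were, in the same order, 2589, 3003, 5300, 1603 and 1605.

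The sign changed for DUSP5 after GO with library totals alone (-0.013), with the GC offset (-0.089) and with that offset and the block (-0.090). After GO–Rg3 it changed for DUSP5 with RLE scaling (0.010), library totals (0.0065), DESeq2 (0.010), only the 6 samples (0.050) and without mitochondrially encoded genes (0.0050), and for SPRY4 with only the 6 samples (0.016). With a sample left out it ranged from -0.041 to 0.0034 for DUSP5 (positive without untreated replicate 1) and from -0.017 to 0.055 for DUSP10 (negative without untreated replicate 2 or GO–Rg3 replicate 3). After GO–Rg3–DOX it changed with library totals alone for DUSP10 (-0.27) and ETV5 (-0.38) and for ETV5 without a filter (-0.050), and with a sample left out ETV5 ranged from -0.012 (without GO–Rg3–DOX replicate 3) to 0.093. Between GO–Rg3 and GO it changed for DUSP4 (0.044) and DUSP5 (0.020) with library totals alone and for DUSP5 with the GC offset (0.045) and with that offset and the block (0.045). With library totals alone 30.6% of the genes that passed after GO were higher, in place of 44%, and 71.2% in place of 54.0% between GO–Rg3 and GO.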
